A study of Mus musculus with 11 samples.

Results

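Transcripts of 8 genes of cholesterol synthesis and its control were followed in 3T3-L1 cells given a fatty acid for 4, 8 or 12 h. The set comprised 6 enzymes, in the order of the pathway Hmgcs1, Idi1, Fdft1, Sqle, Cyp51 and Msmo1, and the regulators Insig1 and Srebf2. The genes were chosen by name, from every probe set that the platform annotation gives to that symbol alone, and the brightest probe set stood for each gene. All 8 passed the filter on dim probe sets and were read out of a fit over 12428 genes. Of their 20 probe sets, 17 passed, and the 3 that did not belonged to Fdft1 (2) and Cyp51 (1). None of the 8 encodes a receptor for low-density lipoprotein (LDL), although the set was put together under a heading that also named LDL uptake, and the genes of uptake that were measured are given with the other pathway genes.

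Cholesterol is built from acetyl units. Hmgcs1 (HMG-CoA synthase) makes the precursor of mevalonate, Idi1 (isopentenyl diphosphate isomerase) interconverts the isoprene units, Fdft1 (squalene synthase) joins farnesyl units into squalene, and Sqle (squalene epoxidase) oxidises squalene before ring closure. Cyp51 (lanosterol demethylase) and Msmo1 (methylsterol monooxygenase) then remove methyl groups from the sterol ring. When sterols are scarce, the precursor of SREBP2, encoded by Srebf2, is carried by SCAP to the Golgi and cut by the proteases of Mbtps1 and Mbtps2, and the released fragment activates the genes of this pathway. Insig1, itself a target of SREBP2, holds SCAP and the precursor in the endoplasmic reticulum when sterols are plentiful.

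3T3-L1 is a mouse fibroblast line able to differentiate into adipocytes, and the cultures are labelled preadipocytes. The 11 arrays, 1-colour Affymetrix arrays of biotinylated cRNA, covered t10c12 conjugated linoleic acid (CLA) and, as the control, linoleic acid (LA), its isomer with double bonds that are not conjugated. LA was measured in 1 array at 4 h, 2 at 8 h and 2 at 12 h, and CLA in 2 arrays at each of the 3 times. The submitters' design text points to 2 LA arrays at 4 h, and the other one was not analysed here. No array of cells without a fatty acid was among them, so a change over time that both fatty acids share cannot be told apart from a change with time in culture. The labels give no dose, and they call the replicates biological without saying that they are separate cultures, so the p-values cover the spread among these arrays, part or all of which may be technical. In bulk RNA, fewer cells with a transcript and less of it per cell cannot be told apart. Intensities below are quantile-normalised and linear, their errors are SDs over arrays, and differences are log2 differences from limma with their SE. A gene was called when its Benjamini-Hochberg adjusted p over all 12428 genes was under 0.05.

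Replicate arrays correlated at 0.97 to 0.978 over all genes, and the first principal component (35.6% of the variance) set the 3 arrays of 4 h (-43.2 to -38.3) and the 2 LA arrays of 12 h (48.9 and 49.1) at its ends. The ratio of 3' to 5' signal of GAPDH, a sign of RNA quality or labelling, was 0.983 to 1.18 in LA and 0.884 to 1.01 in CLA. It was higher in the LA arrays at 4 and 12 h, and at 8 h it was 1.01 and 1.02 in LA against 0.893 and 1.01 in CLA. That of actin was higher in the LA arrays at each time (1.55 to 1.75 against 1.31 to 1.69). The spiked Cre control was brighter in LA too (6953 to 8235 against 6153 to 6548). These ratios move with the fatty acid in every CLA against LA value below, and their part in those values was not tested. Of 11 annotated preadipocyte or fibroblast markers (12 listed), 10 lay above the background level of 8.89 in all arrays, with a summed intensity of 42840 to 47017 in LA and 41933 to 45949 in CLA, and Cd34 was at background. Of 6 annotated adipocyte markers (8 listed), Fabp4 and Slc2a4 lay above it in all arrays (sums of the list 190 to 404 in LA and 228 to 502 in CLA), Adipoq in 1 array, and Lep, Cidec and Retn in none. Macrophage markers summed to 204 to 1246 in LA and 188 to 491 in CLA (3 of 6 above background in all arrays, Itgam and Ptprc in none), endothelial markers to 18 to 31 and 7 to 28 (0 of 4, Pecam1 at 0), and hepatocyte markers to 2 to 15 and 3 to 25 (0 of 3 annotated of 4 listed, Alb in no array). Most of the macrophage sum was Csf1r (109 to 1170 over the arrays), while Adgre1 (17 to 40.6), Lyz2 (17.8 to 50.2) and Cd68 (0.985 to 15.5) were dim. The part of these cell types in the results was not tested.

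Promoters of 6 of the 8 genes were found among the RefSeq promoters of GRCm38.p6, each 250 bases before the start of the gene and 50 after it, and those of Fdft1 and Sqle were not among them. The sequences of the 3 genes called over the mean of the times are shown. A link between these sequences and the difference between the fatty acids was not tested. Capitals mark an SREBP element (TCACNCCAC) or a CCAAT box (CCAAT), on either strand. Hmgcs1 lies at chr13:119690101-119690400 on the plus strand, Idi1 at chr13:8885356-8885655 on the plus strand and Msmo1 at chr8:64733529-64733828 on the minus strand, each window read in the direction of its gene.
Hmgcs1: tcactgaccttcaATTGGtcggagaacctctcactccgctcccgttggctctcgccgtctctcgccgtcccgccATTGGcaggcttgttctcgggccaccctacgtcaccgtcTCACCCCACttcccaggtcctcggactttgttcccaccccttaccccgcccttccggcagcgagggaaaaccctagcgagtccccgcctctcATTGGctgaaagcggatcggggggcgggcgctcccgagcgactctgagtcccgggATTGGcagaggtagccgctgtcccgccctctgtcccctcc
Idi1: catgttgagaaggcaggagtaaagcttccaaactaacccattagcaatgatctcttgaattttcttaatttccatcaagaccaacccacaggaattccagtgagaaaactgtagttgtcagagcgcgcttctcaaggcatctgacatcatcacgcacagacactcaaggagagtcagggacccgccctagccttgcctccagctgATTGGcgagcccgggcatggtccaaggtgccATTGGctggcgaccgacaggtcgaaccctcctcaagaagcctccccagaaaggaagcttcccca
Msmo1: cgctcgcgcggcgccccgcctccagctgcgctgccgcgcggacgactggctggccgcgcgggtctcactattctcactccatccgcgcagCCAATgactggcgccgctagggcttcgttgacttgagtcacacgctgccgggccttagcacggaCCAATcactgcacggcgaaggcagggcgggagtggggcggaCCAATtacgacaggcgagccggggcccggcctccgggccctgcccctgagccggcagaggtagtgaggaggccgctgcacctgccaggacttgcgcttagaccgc
The SREBP element was found in 1 of the 6 windows, that of Hmgcs1, 137 bases before the start, and in 1.24% of all 32851 promoters of that length. The CCAAT box, which binds NF-Y, a partner of SREBP at sterol-responsive promoters, was found in all 6 windows against 37.4% of all promoters, with 4 matches in Hmgcs1, 2 in Idi1, 3 in Msmo1 and 1 each in Cyp51, Insig1 and Srebf2. The GC box (GGGCGG), bound by SP1, was found in all 6 against 35.7%. None of these matches in the 6 windows overlapped another, and both strands were searched. A match is a stretch of letters, not a measured binding site.

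**Figure D1:**
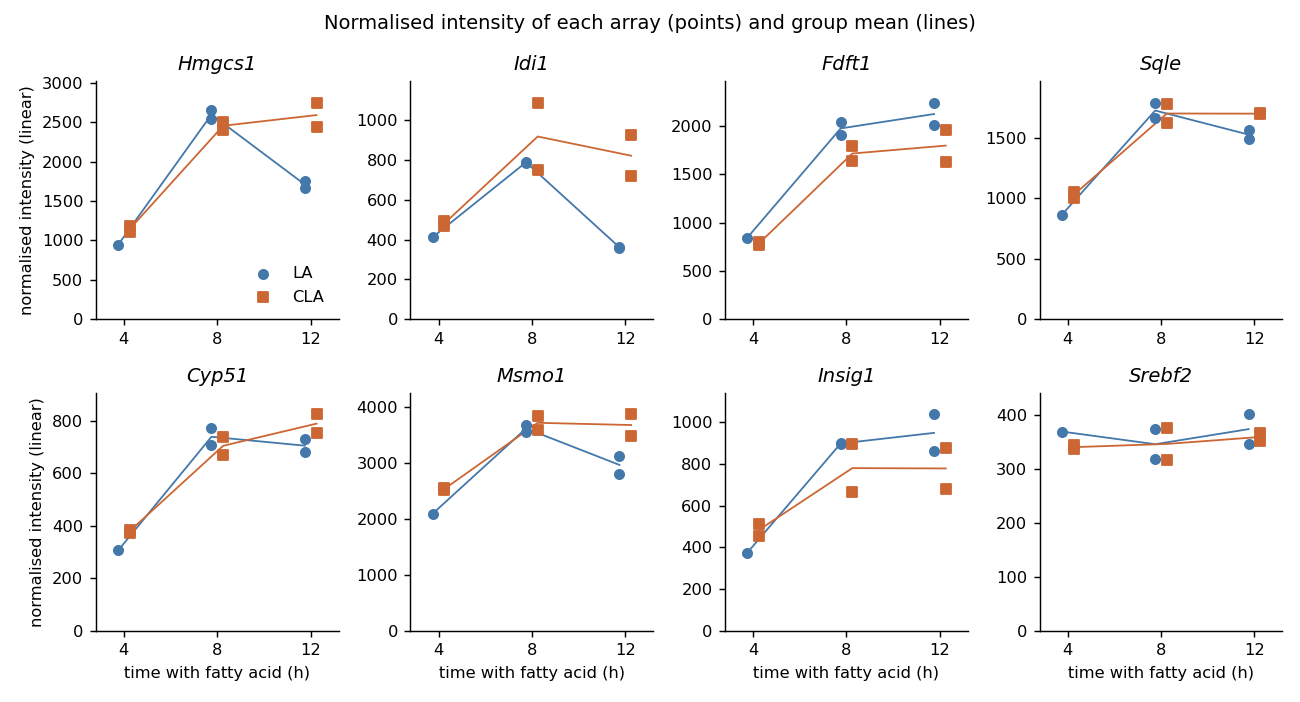
Quantile-normalised intensity (linear axis from 0) of the 8 genes against hours with LA (blue circles) or CLA (orange squares), 1 point per array, with lines through the group means. The 6 enzymes and Insig1 lay lowest at 4 h in both fatty acids, except Idi1 in LA, which was lowest at 12 h. Srebf2 stayed between 318 and 402, and at 12 h the LA arrays of Hmgcs1, Idi1, Sqle, Cyp51 and Msmo1 lay below the CLA arrays. The share of all genes whose arrays lie apart in this way was not counted.

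The level of each gene in every array was as follows. Hmgcs1, at the entry of the pathway, measured 944 in the LA array of 4 h and 1102 and 1188 in CLA, then 2544 and 2652 in LA against 2509 and 2403 in CLA at 8 h, and 1669 and 1750 in LA and 2434 and 2749 in CLA at 12 h. Its LA arrays of 12 h thus lay between the levels of 4 h and 8 h, while its CLA arrays of 12 h overlapped those of 8 h, and the fatty acids did not overlap at 12 h. Idi1 measured 412 in LA and 469 and 493 in CLA at 4 h, then 787 and 790 in LA and 1088 and 748 in CLA at 8 h, and 358 and 364 in LA and 925 and 718 in CLA at 12 h. The LA arrays of 12 h were the lowest of all 11 for Idi1, below even the LA array of 4 h. The 2 CLA arrays of 8 h differed most for this gene, by more than any other pair of its replicates.

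Fdft1, which commits farnesyl units to squalene, measured 844 in LA and 773 and 797 in CLA at 4 h, then 2043 and 1911 in LA and 1642 and 1792 in CLA at 8 h, and 2009 and 2244 in LA and 1633 and 1965 in CLA at 12 h. With this brightest probe set, the CLA arrays of Fdft1 lay below the LA arrays at all 3 times. Its other probe set past the filter, 1448130_at, had CLA above LA at 4 h (599 and 609 against 525), and its fatty acids overlapped at 8 and 12 h. Sqle measured 864 in LA and 1006 and 1050 in CLA at 4 h, then 1663 and 1793 in LA and 1623 and 1784 in CLA at 8 h, and 1566 and 1491 in LA and 1696 and 1708 in CLA at 12 h. Its fatty acids overlapped at 8 h and lay apart at 4 and 12 h, with CLA above LA. Cyp51 measured 306 in LA and 374 and 386 in CLA at 4 h, then 707 and 772 in LA and 670 and 740 in CLA at 8 h, and 731 and 680 in LA and 754 and 825 in CLA at 12 h. Msmo1 measured 2092 in LA and 2513 and 2553 in CLA at 4 h, then 3543 and 3685 in LA and 3842 and 3589 in CLA at 8 h, and 3123 and 2804 in LA and 3867 and 3484 in CLA at 12 h. Cyp51 and Msmo1 overlapped between the fatty acids at 8 h, with CLA above LA at the other times.

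Insig1 measured 374 in LA and 512 and 455 in CLA at 4 h, then 894 and 902 in LA and 665 and 895 in CLA at 8 h, and 1038 and 860 in LA and 877 and 680 in CLA at 12 h. It lay above LA in CLA at 4 h and overlapped with LA at 12 h. Srebf2 measured 370 in LA and 337 and 345 in CLA at 4 h, then 319 and 374 in LA and 318 and 376 in CLA at 8 h, and 402 and 347 in LA and 352 and 368 in CLA at 12 h. Its highest array was 402 and its lowest 318, with no order by time.

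Between 4 h and 8 h all 6 enzymes and Insig1 rose in both fatty acids, and Srebf2 was not called. In CLA, where both times had 2 arrays, 7 of the 8 genes were called higher, against 7.32% of all genes (5.54% of all genes were lower). The rise in CLA was 1.1 ± 0.08 for Hmgcs1 (2.14-fold, adjusted p = 1.05e-05), 0.90 ± 0.16 for Idi1 (1.87-fold, adjusted p = 0.00373) and 1.13 ± 0.10 for Fdft1 (2.18-fold, adjusted p = 4.01e-05). It was 0.73 ± 0.08 for Sqle, 0.89 ± 0.10 for Cyp51, 0.55 ± 0.07 for Msmo1 and 0.68 ± 0.16 for Insig1 (adjusted p = 0.000135, 0.000184, 0.000536 and 0.0164). Srebf2 differed by 0.02 ± 0.13 (95% confidence interval -0.26 to 0.30). The median of the 8 was 0.81, and that of all genes 0.03, and 56.9% of the calls over all genes were higher, against 81% with the intensities as deposited. Insig1 was not called without CLA replicate 1 of 4 h (0.76, adjusted p = 0.0518), CLA replicate 2 of 4 h (0.59, adjusted p = 0.117) or CLA replicate 2 of 8 h (0.46, adjusted p = 0.119).

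In LA the same 7 genes were called higher, against 7.29% of all genes (4.78% were lower), in a comparison added after the values were seen and resting on the single LA array of 4 h, whose spread was assumed to be that of the other groups. Hmgcs1 rose by 1.46 ± 0.09 (2.75-fold, adjusted p = 1.54e-05), Cyp51 by 1.27 ± 0.12 (2.41-fold, adjusted p = 0.000116), Insig1 by 1.26 ± 0.19 (2.39-fold, adjusted p = 0.00213) and Fdft1 by 1.23 ± 0.12 (2.34-fold, adjusted p = 0.000135). Sqle rose by 1.0 ± 0.09, Idi1 by 0.93 ± 0.20 and Msmo1 by 0.79 ± 0.09 (adjusted p = 0.000108, 0.0119 and 0.000328). Srebf2 differed by -0.10 ± 0.16. The median of the 8 was 1.11, and that of all genes 0.03. Of the calls over all genes 60.4% were higher, against 85.7% with median scaling and 33.6% with the intensities as deposited. Idi1 was not called without LA replicate 1 of 8 h (0.93, adjusted p = 0.0588) or LA replicate 2 of 8 h (0.93, adjusted p = 0.0585), and with the intensities as deposited, without scaling (0.77, adjusted p = 0.16). The difference between the fatty acids in this change was called for 0 of the 8 genes by limma, against 0.0402% of all genes, with 4 of the 8 and 5.75% of all genes at an unadjusted p under 0.05 (Hmgcs1 -0.36, Cyp51 -0.38, Insig1 -0.58 and Sqle -0.27, CLA minus LA).

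**Figure D2:**
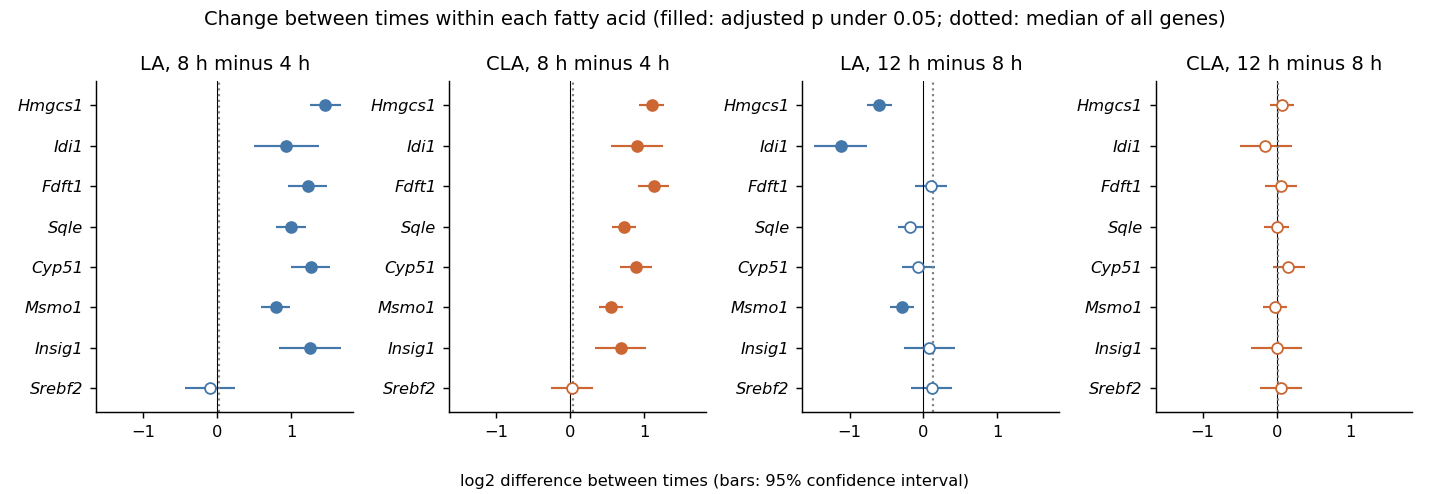
Log2 difference between neighbouring times in LA (blue) and CLA (orange) for the 8 genes, with 95% confidence intervals, filled where the adjusted p was under 0.05, and a dotted line at the median of all genes. From 4 to 8 h, 7 of 8 genes rose in each fatty acid, and from 8 to 12 h only Hmgcs1, Idi1 and Msmo1 in LA were called, with values of -0.60, -1.12 and -0.29.

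At 12 h, Idi1, Hmgcs1 and Msmo1 were higher in CLA than in LA, and the other 3 enzymes, Insig1 and Srebf2 were not called. The 2 mevalonate and isoprenoid enzymes among the 8 had the largest differences of the 8, and the called sterol enzyme the next. Of the 5 other mevalonate and isoprenoid enzymes measured, 1 was called at 12 h, Ggps1 (0.55). Mvk (-0.04), Pmvk (-0.26), Mvd (0.18) and Fdps (0.14) were not. Idi1 was at 822 ± 146 (SD, n = 2) in CLA and 361 ± 4.02 in LA, a difference of 1.17 ± 0.16 (2.25-fold, adjusted p = 0.00132, limma). Hmgcs1 was at 2592 ± 223 and 1709 ± 56.7, a difference of 0.60 ± 0.08 (1.51-fold, adjusted p = 0.00106), and Msmo1 at 3675 ± 271 and 2963 ± 226, a difference of 0.31 ± 0.07 (1.24-fold, adjusted p = 0.0155). Thus 3 of the 8 were higher and 0 lower, against 9.46% and 9.33% of all genes, with a median of 0.16 in the 8 and -0.15 in all genes.

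The squalene enzymes had differences of opposite sign at 12 h, -0.25 ± 0.10 for Fdft1 (95% confidence interval -0.46 to -0.03, adjusted p = 0.0987) and 0.16 ± 0.08 for Sqle (-0.01 to 0.32, adjusted p = 0.168). Cyp51, which acts before Msmo1, had a difference of 0.16 ± 0.10 (-0.05 to 0.38, adjusted p = 0.259). The regulators had -0.29 ± 0.16 for Insig1 (-0.64 to 0.06, adjusted p = 0.21) and -0.06 ± 0.13 for Srebf2 (-0.34 to 0.22, adjusted p = 0.782). Without LA replicate 2 of 12 h or CLA replicate 1 of 12 h, Msmo1 was no longer called (0.23 in both, adjusted p = 0.121 and 0.10), and without CLA replicate 2 of 12 h Fdft1 was called lower (-0.38, adjusted p = 0.0285). Where each array was scaled to the same median instead, Idi1 was called (1.15) and Hmgcs1 (0.37, adjusted p = 0.127) and Msmo1 (0.05, adjusted p = 0.846) were not, and 72.3% of the calls over all genes were then higher, against 50.4% with quantile normalisation and 99.5% with the intensities as deposited (0.83 for Hmgcs1, 1.61 for Idi1 and 0.51 for Msmo1, all called). Over 24 alternatives, the authors' table left aside, Hmgcs1 and Idi1 were called in 23 each and Msmo1 in 16. Idi1 was lost with the log2 median intensity as a covariate (0.85, adjusted p = 0.0618), and Fdft1 was also called with cyclic loess (-0.31, adjusted p = 0.0466).

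**Figure D3:**
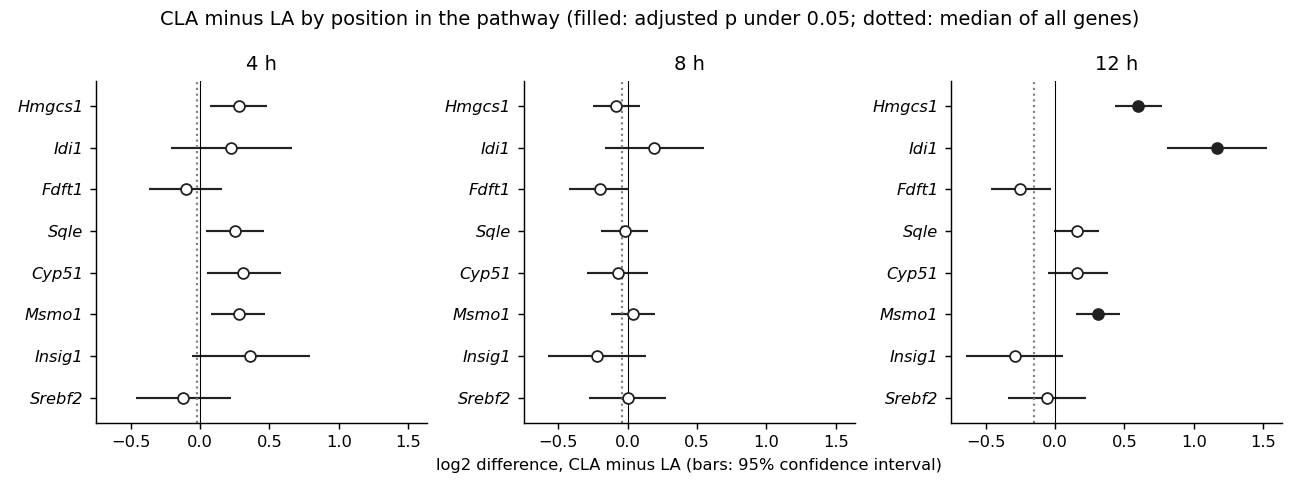
Log2 difference of CLA minus LA at 4, 8 and 12 h for the 8 genes in pathway order from top to bottom, with 95% confidence intervals, filled where the adjusted p was under 0.05, and a dotted line at the median of all genes. No gene is filled at 4 or 8 h, and at 12 h Hmgcs1 (0.60), Idi1 (1.17) and Msmo1 (0.31) are.

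From 8 to 12 h the same 3 genes fell in LA, and none of the 8 was called in CLA. Idi1 fell by 1.12 ± 0.16 (adjusted p = 0.00108), Hmgcs1 by 0.60 ± 0.08 (adjusted p = 0.000614) and Msmo1 by 0.29 ± 0.07 (adjusted p = 0.0175), 3 of 8 against 11.4% of all genes lower and 11% higher. The other 5 were not called in LA, with values from -0.18 ± 0.08 for Sqle to 0.11 ± 0.13 for Srebf2. In CLA 0 of the 8 were at an unadjusted p under 0.05, against 10.3% of all genes, and 0 of the 8 were called by limma, against 0.402% of all genes (36% of them higher, 57.1% with median scaling and 0% with the intensities as deposited). The values in CLA ran from -0.15 ± 0.16 for Idi1 (95% confidence interval -0.50 to 0.21) to 0.16 ± 0.10 for Cyp51 (-0.05 to 0.38), with 0.08 ± 0.08 for Hmgcs1 and -0.02 ± 0.07 for Msmo1. The change in LA and the difference between the fatty acids at 12 h share the 2 LA arrays of 12 h and are not separate evidence. Msmo1 in LA was not called without LA replicate 1 (-0.32, adjusted p = 0.0644) or replicate 2 (-0.26, adjusted p = 0.123) of 8 h or LA replicate 2 of 12 h (-0.21, adjusted p = 0.126), and with median scaling neither Hmgcs1 (-0.47, adjusted p = 0.0534) nor Msmo1 (-0.12, adjusted p = 0.601) was called, with 33.3% of all calls higher in place of 49.2% (1.79% with the intensities as deposited).

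Whether the difference between the fatty acids changed over the 3 times was tested directly, and 1 of the 8 genes, Hmgcs1, was called by the F test (adjusted p = 0.0378), against 1.14% of all genes. Its difference moved from 0.28 at 4 h to -0.08 at 8 h and 0.60 at 12 h, and the step from 8 to 12 h of 0.68 ± 0.11 was itself called (adjusted p = 0.0322), where 1.12% of all genes were called higher. For Idi1 that step was 0.98 ± 0.23 (adjusted p = 0.0678) and the F test gave an adjusted p of 0.0787, and for Msmo1 the step was 0.27 ± 0.10 (adjusted p = 0.243). The F test's call of Hmgcs1 was lost without either CLA array of 4 h (adjusted p = 0.0733 without replicate 1 and 0.0771 without replicate 2), either LA array of 8 h (0.105 and 0.146), CLA replicate 2 of 8 h (0.0524) or either LA array of 12 h (0.145 and 0.102). Idi1 was called without CLA replicate 1 of 8 h (adjusted p = 0.00972), CLA replicate 2 of 8 h (0.0465) or CLA replicate 2 of 12 h (0.0491). With median scaling the gene called was Idi1 (adjusted p = 0.0216) and no longer Hmgcs1 (adjusted p = 0.234). Fitted over all 26629 probe sets past the filter, no probe set of Hmgcs1 was called by the F test (adjusted p = 0.0617 for the brightest). The step from 8 to 12 h of the brightest was not called there either (limma, adjusted p = 0.0563).

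At 4 h none of the 8 genes was called between the fatty acids, and 6 of the 8 had values above 0. The values, CLA minus LA, were 0.28 ± 0.09 for Hmgcs1, 0.22 ± 0.20 for Idi1, -0.10 ± 0.12 for Fdft1, 0.25 ± 0.09 for Sqle, 0.31 ± 0.12 for Cyp51, 0.28 ± 0.09 for Msmo1, 0.36 ± 0.19 for Insig1 and -0.12 ± 0.16 for Srebf2. The adjusted p was lowest for Msmo1 (0.332), and 4 of the 8 (Hmgcs1, Sqle, Cyp51 and Msmo1) had an unadjusted p under 0.05, as did 9.11% of all genes, while limma called 0.298% of all genes after adjustment. The median of the 8 was 0.26 and that of all genes -0.02, and these values rest on 1 LA array. With the intensities as deposited, Idi1 was at -0.04 and Sqle at 0, where the median of all genes was -0.28 and 27.3% of all calls were higher in place of 43.2%.

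At 8 h, too, none of the 8 was called, and limma called 0% of all genes, with 491 of them and 0 of the 8 at an unadjusted p under 0.05. The differences ran from -0.22 ± 0.16 for Insig1 and -0.20 ± 0.10 for Fdft1 to 0.19 ± 0.16 for Idi1, and their median was -0.05 against -0.04 in all genes. Hmgcs1 was at -0.08 ± 0.08 (95% confidence interval -0.25 to 0.09), Sqle at -0.02 ± 0.08, Cyp51 at -0.07 ± 0.10, Msmo1 at 0.04 ± 0.07 (-0.12 to 0.20) and Srebf2 at 0.00 ± 0.13.

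Averaged over the 3 times, Idi1 (0.53 ± 0.10, adjusted p = 0.0205), Hmgcs1 (0.26 ± 0.05, adjusted p = 0.0196) and Msmo1 (0.21 ± 0.05, adjusted p = 0.0278) were higher in CLA, 3 of 8 against 4.14% of all genes. The other values were -0.18 ± 0.06 for Fdft1 (adjusted p = 0.0856), 0.13 ± 0.05 for Sqle, 0.14 ± 0.06 for Cyp51, -0.05 ± 0.10 for Insig1 and -0.06 ± 0.08 for Srebf2. This average rests on 12 h and on single arrays. Without 12 h it was 0.21 for Idi1, 0.10 for Hmgcs1 and 0.16 for Msmo1, and none was called. None of the 8 was called without CLA replicate 2 of 4 h, either LA array of 8 h or LA replicate 2 of 12 h (adjusted p for Hmgcs1 = 0.0575, 0.0811, 0.0512 and 0.0504), and only Hmgcs1 without CLA replicate 1 of 4 h. Msmo1 was not called without CLA replicate 1 of 8 h (0.19, adjusted p = 0.0583), and Fdft1 was called lower without CLA replicate 2 of 12 h (-0.23, adjusted p = 0.0324). With median scaling 86.6% of all calls were higher, against 57.9%, and of the 3 genes only Idi1 was called (0.51). With the intensities as deposited that share was 88.2% and none of the 3 was called.

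Other probe sets of the same genes gave a check within each gene, tested over 26629 probe sets. For Hmgcs1 the brightest and 3 others (1433443_a_at, 1433444_at and 1433446_at) were all higher in CLA at 12 h, by 0.52 to 1.0, and the dim 1441536_at, at 21 to 48 over the arrays, was at -0.26 ± 0.31. The second probe set of Idi1, 1423804_a_at, measured 289 and 267 in LA and 533 and 650 in CLA at 12 h, a difference of 1.08 ± 0.28 (adjusted p = 0.0319). For Fdft1 the probe sets differed, with -0.25 ± 0.10 for the brightest, 1438322_x_at, and 0.01 ± 0.10 for 1448130_at. Averaged over the times, 1448130_at was at 0.07 ± 0.06, and at 4 h at 0.20 ± 0.13, where the brightest was negative. The suffix of 1438322_x_at marks probes that can match other transcripts. The brightest probe set of Hmgcs1, 1433445_x_at, carries the same suffix. The second probe set of Cyp51 was at 0.02 ± 0.17 and that of Srebf2 at 0.15 ± 0.13, and the dim one of Msmo1 (2 to 52 over the arrays) at 0.58 ± 0.88. Sqle and Insig1 have 1 probe set each.

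**Figure D4:**
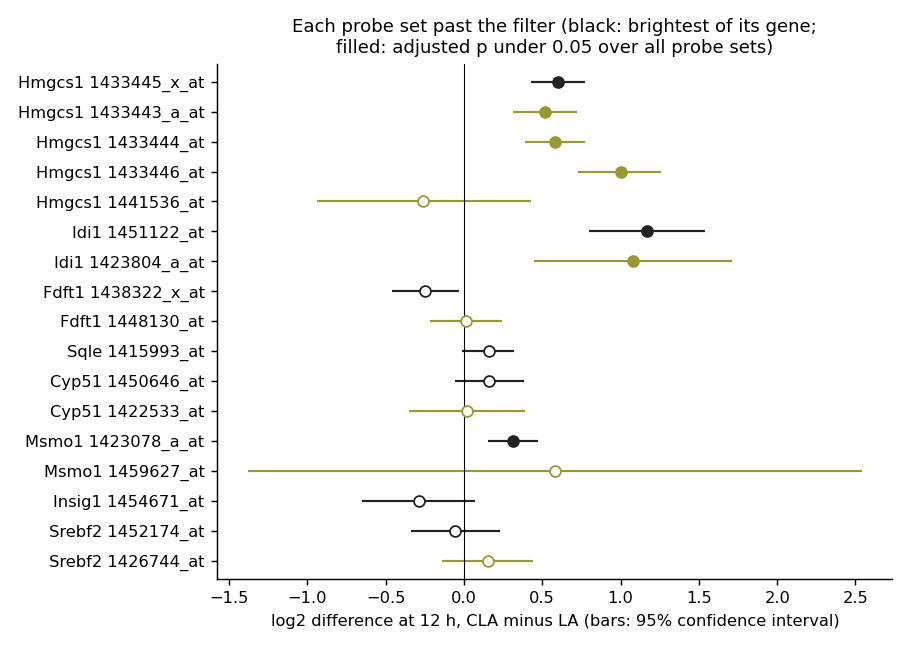
Log2 difference of CLA minus LA at 12 h for each of the 17 probe sets past the filter, with 95% confidence intervals, black for the brightest of each gene and filled where the p adjusted over all probe sets was under 0.05. Of the 5 probe sets of Hmgcs1, 4 are filled (0.52 to 1.0), as are both of Idi1 (1.17 and 1.08), while those of Fdft1 lie at -0.25 and 0.01.

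The authors' deposited table of ratios per time does not name its direction, and it is read here as CLA over LA. The same 3 genes had the largest ratios of the 8 in size in the authors' deposited table at 12 h, and with the ratio turned they would be the lowest in CLA. In the authors' deposited table of 12 h the log2 ratio was 1.25 for Idi1, 0.63 for Hmgcs1 and 0.39 for Msmo1. With the authors' p-values adjusted over the same genes, 5 of the 8 passed in the authors' deposited table at 12 h, where 21% of all genes did. These 5 were the same 3 genes with Sqle (0.23, adjusted p = 0.00358) and Cyp51 (0.21, adjusted p = 0.0103). At 4 h 1 of the 8, Msmo1 (0.33, adjusted p = 0.0162), passed in the authors' deposited table, where 0.901% of all genes did.

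Other genes of the pathway were read from a list of 34, of which 27 were measured and the other 7 were not analysed here. From 4 to 8 h, 8 of the 27 rose in CLA and 7 in LA, and 1, Abca1, fell in both. In CLA 29.6% of the 27 were higher, against 7.32% of all genes, and in LA 25.9%, against 7.29%, while 3.7% were lower in each, against 5.54% and 4.78%. Hsd17b7, a sterol reductase, rose by 1.19 ± 0.11 in CLA and 1.28 ± 0.13 in LA, from 265 in LA and 261 and 247 in CLA to between 569 and 649 in the arrays of 8 h. Fdps, which makes the farnesyl units that Fdft1 joins, rose by 0.43 ± 0.08 and 0.78 ± 0.10, and Lss, which closes the rings after Sqle, by 0.64 ± 0.12 and 0.86 ± 0.14. Of the 8 sterol enzymes measured, 6 rose in CLA (Lss, Lbr, Nsdhl, Hsd17b7, Ebp and Dhcr7) and 5 in LA, those without Ebp. Stard4, a sterol carrier, was called in CLA only (1.0 ± 0.26), and Npc1, which moves cholesterol out of lysosomes, in LA only (0.64 ± 0.16). Yet Stard4 in LA went from 272 to 516 and 582, and Npc1 in CLA from 158 and 161 to 201 and 225. The difference between the fatty acids in this change was called for 0 of the 27, against 0.0402% of all genes. In CLA, Stard4 kept its call in 16 and Dhcr7 in 14 of 23 alternatives. None of the 5 other genes of SREBP control was called in either.

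Abca1, the cholesterol exporter and a target of the sterol sensor LXR, moved the other way. It measured 1050 in LA and 1200 and 1220 in CLA at 4 h, then 180 and 197 in LA and 213 and 228 in CLA at 8 h, and 95.1 and 105 in LA and 128 and 166 in CLA at 12 h. Every array of 4 h lay above every later array. It fell by 2.44 ± 0.14 in CLA (5.43-fold, adjusted p = 2.41e-06) and fell by 2.47 ± 0.17 in LA (5.54-fold, adjusted p = 1.69e-05) from 4 to 8 h. The other genes of LXR and efflux measured, Abcg1 and Nr1h3, were not called, but their values lay the other way. At 4 h Abcg1 measured 43.9 in LA and 49.5 and 42.3 in CLA, and at 8 h 63.6 and 131 in LA and 103 and 60.4 in CLA. Nr1h3, near background at 4 h, measured 5.17 in LA and 10.1 and 6.65 in CLA, then 11.7 and 25.9 in LA and 15.5 and 29.2 in CLA at 8 h. The fall of Abca1 was thus not shared by these genes.

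Between the fatty acids, none of the 27 was called at 4 or 8 h, and 4 were at 12 h. These 4 were 11.1% of the 27 higher and 3.7% lower, against 9.46% and 9.33% of all genes, shares near those of all genes or below them. Mbtps2, the protease that releases SREBP from the membrane, measured 243 and 310 in LA and 469 and 494 in CLA, a difference of 0.81 ± 0.12 (1.75-fold, adjusted p = 0.00197). Its fatty acids lay apart at 12 h, and it was called under all 25 alternatives. The rest of the SREBP control list was not called at 12 h, with Srebf1 at -0.55 ± 0.20, Scap at -0.32 ± 0.18, Mbtps1 at -0.17 ± 0.10 and Insig2 at 0.23 ± 0.12. Ggps1, which diverts farnesyl units to geranylgeranyl, was higher by 0.55 ± 0.15 (adjusted p = 0.0289) and Abca1 by 0.53 ± 0.14 (adjusted p = 0.0228). Scarb1, a receptor that takes up cholesterol from lipoproteins, was lower by 0.71 ± 0.22 (-0.71, adjusted p = 0.0436). It measured 128 and 145 in LA and 65.5 and 104 in CLA. The rest of the uptake and transport list was not called, with Stard4 at 0.53, Mylip at 0.19, Npc2 at 0, Lrp1 at -0.06 and Npc1 at -0.23. Ggps1 kept its call in 15, Abca1 in 17 and Scarb1 in 11 of 25 alternatives, and leaving out either LA array of 12 h ended the call of each of the 3. None of the 8 sterol enzymes of this list, which does not hold Msmo1, was called at 12 h, and their median difference was 0.08. Averaged over the times, Mbtps2 (0.28) and Abca1 (0.32) were called (adjusted p = 0.0485 for both), in 7 and 8 of 25 alternatives, 7.41% of the 27 against 4.14% of all genes higher.

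From 8 to 12 h none of the 27 was called in CLA, and 7 were in LA, which uses the same LA arrays of 12 h. In LA 7.41% of the 27 were higher and 18.5% lower, against 11% and 11.4% of all genes, and in CLA 0.402% of all genes were called, so the gap between the fatty acids in these counts is also that of all genes. Abca1 fell by 0.90 ± 0.14, Mbtps2 by 0.65 ± 0.12, Ggps1 by 0.52 ± 0.15, Hsd17b7 by 0.36 ± 0.11 and Sc5d by 0.30 ± 0.09, and Lss rose by 0.41 ± 0.12 and Ebp by 0.34 ± 0.07. Without LA replicate 1 of 8 h only Abca1 of the 7 was called, and only Abca1 and Mbtps2 without the other LA array of 8 h or without LA replicate 1 of 12 h. Lss was also not called without LA replicate 2 of 12 h, nor Hsd17b7 and Sc5d without either CLA array of 4 h.

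**Figure D5:**
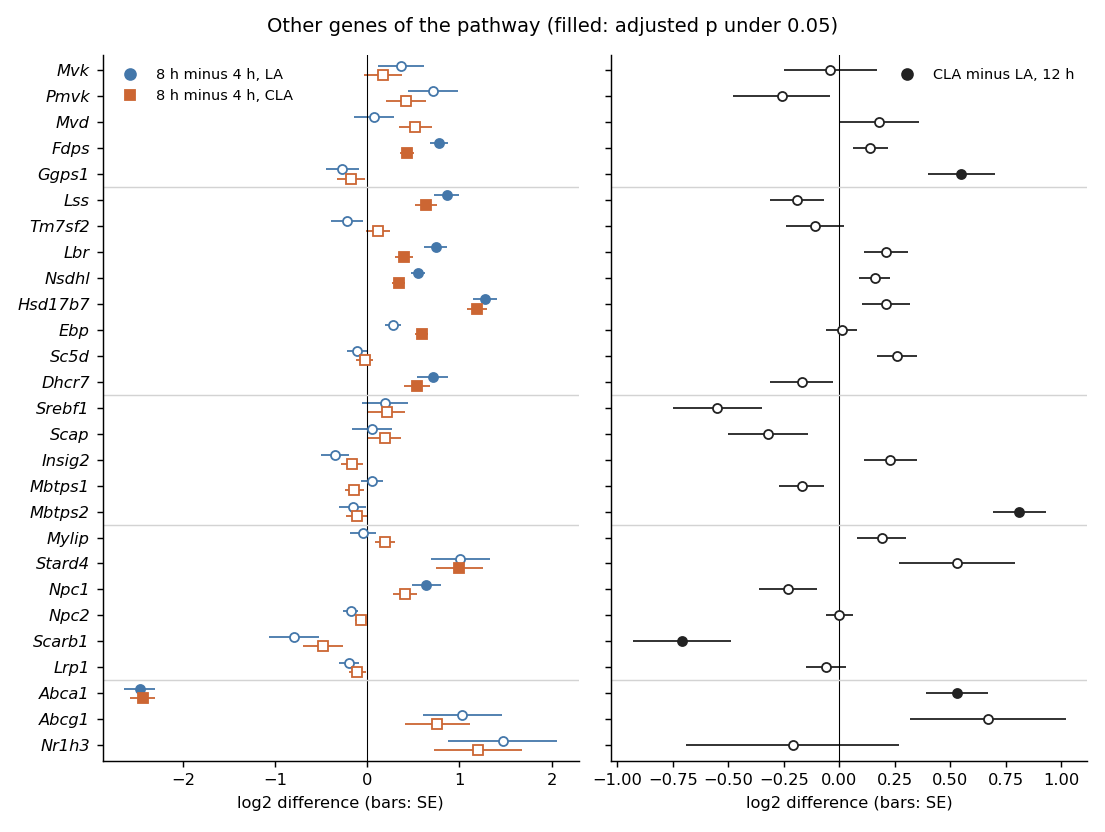
Log2 differences with SE of the 27 other pathway genes measured, in rows grouped by grey lines into mevalonate and isoprenoid enzymes, sterol enzymes, SREBP control, uptake and transport, and LXR and efflux, filled where the adjusted p was under 0.05. The left panel gives 8 h minus 4 h in LA and CLA, where Abca1 lies near -2.4 in both and Hsd17b7 near 1.2, and the right panel gives CLA minus LA at 12 h, where Mbtps2 (0.81), Ggps1, Abca1 and Scarb1 are filled.

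The pattern of the enzymes over the arrays was summarised by the mean of their 6 z-scores, which was -1.66 in the LA array of 4 h and -1.23 and -1.11 in CLA, 0.61 to 0.75 in all 4 arrays of 8 h, and, at 12 h, -0.01 and -0.09 for LA against 0.71 and 0.69 for CLA. Each enzyme's Pearson correlation with this mean over the 11 arrays was 0.99 for Hmgcs1, 0.98 for Sqle, 0.97 for Msmo1, 0.96 for Cyp51, 0.86 for Fdft1 and 0.72 for Idi1, the mean including the enzyme itself. Idi1 and Fdft1 correlated least with each other (0.30) of the pairs of enzymes. Insig1 correlated with the mean at 0.82 (rank 449 of 12422 genes) and Srebf2 at -0.04. The 6 other genes most like it were Fkbp14 (0.989), Mtus1 (0.987), Fermt2 (0.987), Cnr1 (0.986), Thbs1 (0.985) and Ibtk (0.981). Fkbp14, a folding factor of the endoplasmic reticulum, measured 887 in LA and 957 and 961 in CLA at 4 h and between 1489 and 1868 in every later array. Of the pathway genes, Lbr stood at rank 12 (0.97), Hsd17b7 at rank 28 (0.96) and Nsdhl at rank 65 (0.94), and Abca1 at -0.82. These correlations are descriptions, since the 11 arrays share the low level of the 4 h arrays.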

How the data were processed

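RNA of 11 samples was hybridised to 1-colour arrays, and groups, times and replicate numbers came from the labels. The authors' deposited value table holds 1 intensity per probe set and array, on a linear scale and background-subtracted, and no source used here gives its software. The authors also deposited a table per time made with Rosetta Resolver, which hold for each probe set a p-value, a linear ratio and the log10 of that ratio, per the file headers. The headers do not name the ratio's direction. CLA over LA was assumed, since across genes these log ratios and the CLA minus LA values here correlated positively (r = 0.651, 0.677 and 0.819 at 4, 8 and 12 h), and the shared sign is therefore no separate evidence.

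Intensities were quantile normalised, set to 0 where negative, and analysed as log2(value + 1.84), the offset being the 25th percentile; this understates changes of dim genes. Of 45101 probe sets, 64 controls were left out and 26629 with a mean above 7.81 (the 40th percentile) kept. The platform annotation gave 34945 probe sets 1 symbol, 932 several and 9160 none; 34741 matched a current gene by Entrez ID (GRCm38.p6, names only). The brightest probe set with 1 symbol stood for a gene, giving 12428 genes. Background, 8.89, is the 95th percentile of 27 unspiked bacterial controls. limma 3.58.1 in R 4.3.3 fitted 6 group means over all 11 arrays (5 residual and 6.1 prior degrees of freedom, intensity trend), tested on simulated data; adjustment was Benjamini-Hochberg at 0.05. The number of arrays limits the precision. Alternatives changed the scaling, offset, filter, probe set rule, trend, replicate block and arrays, or added each array's log2 median intensity as covariate (chosen after seeing the data).

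The members and lists were chosen with earlier results of these data known. Named were all 8 members, up to 6 called genes of the pathway list per contrast by p and counts for the rest, the 6 genes most like the enzymes' mean pattern, and promoters of members called over the mean of the times; further called pathway genes were named after their values were seen.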

Additional observations from a re-analysis of the deposited data

Results flagged for a closer look

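The difference between CLA and LA in Hmgcs1, the HMG-CoA synthase, differed between the 3 times by limma's F test (adjusted p = 0.0378). It was the only one of the 8 genes called in the reported fit, with 1 probe set per gene. Fitted over all 26629 probe sets past the filter, also quantile normalised, the same probe set of Hmgcs1 was not called (F test, adjusted p = 0.0617). Nor were its other probe sets (adjusted p = 0.0676 to 0.957). With median scaling Hmgcs1 was not called (adjusted p = 0.234) and Idi1 was (adjusted p = 0.0216), and leaving out any of 7 of the arrays also ended the call of Hmgcs1. At 4 h the difference in Hmgcs1 was 0.28 ± 0.09, at 8 h -0.08 ± 0.08, and by 12 h it stood at 0.60 ± 0.08 on the log2 scale, with the arrays of CLA above those of LA at 4 and 12 h and below them at 8 h. At 8 h the LA arrays measured 2544 and 2652 and the CLA arrays 2509 and 2403. No cause of this change was tested.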

How the results depend on the processing

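Across the alternatives, 70 values changed sign, all of them of genes and comparisons that were not called, and 26 of these came from leaving out an array. No gene called between the fatty acids or between times changed sign. For 8 h minus 4 h, 5 to 7 of the 8 members were called in CLA and 6 to 7 in LA. Members called at 12 h were 1 with median scaling (Idi1), 1 with the log2 median intensity as a covariate (Hmgcs1) and 5 in the authors' deposited table, which gave 1 at 4 h. For the mean over 3 times they were 1 with median scaling or averaged probe sets, and 0 with the intensities as deposited, no filter, no intensity trend or without 12 h. For the change over time they were 2 with the intensities as deposited and 0 with no filter, averaged probe sets, no trend or the covariate, and with median scaling the 1 gene called was Idi1 (adjusted p = 0.0216) in place of Hmgcs1 (adjusted p = 0.234). For 12 h minus 8 h in LA there was 1 with median scaling. Leaving out each array in turn gave 2 to 4 members at 12 h, 0 to 4 for the mean, 0 to 2 for the change over time, 2 to 3 for 12 h minus 8 h in LA, and 6 to 7 for 8 h minus 4 h in either fatty acid.

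Over all genes, calls at 12 h (2335) ran from 160 with the covariate to 3257, those for the mean (890) from 1 with no trend or without LA replicate 1 of 8 h to 2529 without CLA replicate 2 of 8 h, and those for the change over time (142) from 3 to 764. Calls at 4 h (37) ran from 0 to 112, at 8 h (0) to 15, for 12 h minus 8 h in LA (2775) from 795 to 3499 and in CLA (50) from 1 to 79, and for 8 h minus 4 h in CLA (1599) from 730 to 2003 and in LA (1500) from 456 to 2071. The cause of these shifts was not tested. Without scaling, the median CLA minus LA of all genes was -0.28 at 4 h and 0.07 at 8 h, and 0.28 at 12 h.

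The labels do not say whether the replicate numbers pair the samples, and they were not used as a block in the reported fit. The deviations of same-numbered LA and CLA arrays from their group means correlated at 0.01 at 8 h and 0.07 at 12 h. With 2 arrays per group this shows no shared deviation, but it cannot tell whether same-numbered arrays shared a culture or day. With a replicate block within each time the change over time was called for 2 members (Hmgcs1 and Idi1), Msmo1 was not called for 12 h minus 8 h in LA (-0.22, adjusted p = 0.0687) nor Insig1 for 8 h minus 4 h in CLA (0.48, adjusted p = 0.0853), and calls over all genes at 4 h were 65, for the change over time 397 and for 8 h minus 4 h in CLA 874. With a replicate block shared over the times Fdft1 was called lower in the mean (-0.20, adjusted p = 0.0487). The block changed no other call of the members; it turned 12 h minus 8 h in CLA to -0.04 for Fdft1 and 0.05 for Msmo1, and 8 h minus 4 h in CLA to -0.08 for Srebf2.

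The other sign changes were these. With median scaling CLA minus LA was 0.01 for Fdft1 at 4 h, -0.18 for Msmo1 and -0.06 for Srebf2 at 8 h, and -0.04 for Sqle at 12 h, Msmo1 was 0.11 for 12 h minus 8 h in CLA, and Srebf2 0.16 for 8 h minus 4 h in LA. With the intensities as deposited CLA minus LA was -0.04 for Idi1 and 0 for Sqle at 4 h, 0.01 for Sqle and Cyp51 and 0 for Msmo1 at 8 h, 0.05 for Insig1 and 0.40 for Srebf2 at 12 h, and 0.01 for Insig1 and 0.04 for Srebf2 in the mean, 12 h minus 8 h in LA was -0.08 for Fdft1, -0.19 for Insig1 and -0.23 for Srebf2, and in CLA 0.04 for Msmo1. With cyclic loess 12 h minus 8 h in CLA was -0.01 for Sqle and Insig1 and 0.01 for Msmo1. With averaged probe sets CLA minus LA was 0.05 for Fdft1, -0.07 for Msmo1 and 0.04 for Srebf2 at 4 h and 0.05 for Srebf2 at 12 h and in the mean, Hmgcs1 was -0.07 for 12 h minus 8 h in CLA, and Srebf2 0.03 for 8 h minus 4 h in LA. With the covariate CLA minus LA was 0.01 for Sqle at 8 h, 0.01 for Insig1 at 12 h and in the mean, and 0.06 for Srebf2 at 12 h, and 12 h minus 8 h was -0.15 for Insig1 in LA and -0.05 for Insig1 and -0.01 for Sqle in CLA. The authors' deposited table gave 0.01 for Sqle and -0.05 for Srebf2 at 8 h and 0.02 for Srebf2 at 12 h. Insig1 in the mean was 0.04 without 8 h and 0.07 without 12 h.

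Leaving out an array turned CLA minus LA at 8 h within ranges of -0.08 to 0.46 for Idi1, -0.09 to 0.05 for Sqle, -0.14 to 0 for Cyp51, -0.01 to 0.09 for Msmo1 and -0.12 to 0.12 for Srebf2, at 12 h of -0.16 to 0.05 for Srebf2, and in the mean of -0.12 to 0.02 for Insig1. For 12 h minus 8 h in LA the ranges were -0.06 to 0.21 for Insig1 and 0 to 0.23 for Srebf2. For 12 h minus 8 h in CLA they were -0.01 to 0.16 for Hmgcs1, -0.42 to 0.13 for Idi1, -0.07 to 0.19 for Fdft1, -0.07 to 0.07 for Sqle, -0.09 to 0.06 for Msmo1, -0.21 to 0.21 for Insig1 and -0.07 to 0.18 for Srebf2. For 8 h minus 4 h they were -0.10 to 0.14 in CLA and -0.21 to 0.01 in LA for Srebf2.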
